A study of Mus musculus with 2 samples.

Results

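The genes described here encode enzymes that add or remove chemical groups on lysine and arginine residues of histones. With them are the Kansl genes, named for subunits of one acetyltransferase complex. Members were taken by gene symbol from the protein-coding genes of the GENCODE basic annotation, release M21: the Kmt, Setd, Ehmt, Kat and Prmt genes (36 writers), the Kdm, Hdac and Sirt genes (36 erasers) and 4 Kansl genes. This gave 76 of 21938 protein-coding genes. A member was called bound when the summit of a YY1 peak, the base with the most signal, lay within 1000 bp of any of its annotated transcript starts.

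Muscle stem cells (MuSCs) were sorted from the muscle of Ctrl mdx mice and used for chromatin immunoprecipitation with an antibody against the transcription factor YY1, followed by sequencing (ChIP-seq). The Ctrl genotype was Pax7 CreERT2/R26YFP; Yy1 +/+; mdx, so these cells kept YY1 and carried the Dmd mutation of the C57BL/10 ScSn DMDmdx strain, a mouse model of Duchenne muscular dystrophy, and the Pax7 gene, active in MuSCs, drove the inducible Cre. Cells of several mice were mixed into 1 YY1 library, whose peaks were called against 1 background library, so variation between mice could not be measured and no test of a condition was possible. The labels describe cultured, WT cells and call the background input, whereas the paper describes freshly isolated mdx cells and names the background as both input and IgG; the age of these mice was not given in the sources used here, and a list of peaks holds no expression with which to check the cell type.

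Writers transfer methyl groups from S-adenosylmethionine, or acetyl groups from acetyl-CoA, to histone tails, and erasers take the same groups off by oxidation or hydrolysis. Methylation of H3K4 marks active promoters and enhancers, methylation of H3K9 marks silent chromatin, methylation of H3K36 follows elongating RNA polymerase, and acetylation loosens the hold of histones on DNA. In muscle, class IIa histone deacetylases bind MEF2 factors and restrain differentiation genes. YY1 is a zinc-finger protein that recognises DNA around the core ATGGC and can act with activating as well as repressive partners.

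The longer YY1 motif AANATGGC was found within 100 bp of the summit in 3 of the 36 bound members, on either strand. The matches are shown first because they are the letters YY1 is known to read, in the members whose summits had them within this distance. Each line gives 30 bases of the GRCm38 (mm10) assembly as held by RefSeq, 5′ to 3′ on the strand of the match, with the 8 bases of the motif in capitals. Kmt2e held 2 matches, on the plus strand at chr5:23434322-23434351 and on the minus strand at chr5:23434442-23434471. The windows of Prmt1 and Kansl2 are both on the minus strand, at chr7:44986303-44986332 and chr15:98534220-98534249.
Kmt2e, first match: agcccataaccAAGATGGCggcgagtagct
Kmt2e, second match: ctcgctctgggAAAATGGCggcggcgacgg
Prmt1: ggactcgggtgAAGATGGCggcagccgagg
Kansl2: gtgggggaggtAAGATGGCgccgtgccggg

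The match lay 10 bp from the summit at Prmt1, 51 bp at Kansl2, and 51 and 69 bp at Kmt2e. Measured against the transcript start, the Prmt1 match spanned the start, with its first base 2 bp upstream, and the first base of the Kansl2 match was 6 bp downstream.

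The same letters stood near starts where no peak was called. The next windows, from 4 members without a promoter peak whose closest relative was bound (Hdac1 beside Hdac2, Kdm2a beside Kdm2b, Ehmt2 beside Ehmt1 and Kat6a beside Kat6b), are printed in the same way to show that the motif was also present where no peak was called. They lie at chr4:129542614-129542643 (minus strand), chr19:4397041-4397070 (minus), chr17:34898376-34898405 (plus) and chr8:22859544-22859573 (plus).
Hdac1: gggcggcgagcAAGATGGCgcagactcagg
Kdm2a: ctgacgggttcAAAATGGCggcggctgctt
Ehmt2: tctggggggcaAAAATGGCcaagaggcccg
Kat6a: tcactgtctccAAGATGGCggccgtgtcag

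The sequences at the 2 most enriched summits of the members are shown next, because neither held the full motif within 100 bp of the summit. The 121 bases centred on the summits of Kmt2a (chr9:44881445-44881565) and Kdm3a (chr6:71633450-71633570) are printed on the minus strand, the strand of both genes, with the core ATGGC in capitals on whichever strand it was found. At Kmt2a these bases held 0 cores, and at Kdm3a they held 1, seen as its reverse complement GCCAT. Within 100 bp of the summit the counts were 0 at Kmt2a and 2 at Kdm3a, and both peaks held AANATGGC farther out.
Kmt2a: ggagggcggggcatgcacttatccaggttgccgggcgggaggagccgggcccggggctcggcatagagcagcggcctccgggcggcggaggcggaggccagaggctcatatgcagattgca
Kdm3a: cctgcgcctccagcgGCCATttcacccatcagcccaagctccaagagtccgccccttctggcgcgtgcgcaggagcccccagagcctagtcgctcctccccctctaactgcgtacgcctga

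YY1 summits were found at the promoters of 36 of the 76 members (47.4%, exact binomial 95% interval 35.8 to 59.2%). Across all protein-coding genes the share was 18.8%. All intervals given here cover counting error only, and because the members were chosen with results of these data known, no test of the list was made. The 36 members had 36 different peaks, and every one of them kept its promoter peak when only peaks with a q-value under 0.01 were counted. Most other bound genes kept theirs too, as 17.4% of all protein-coding genes were bound at that limit. When a fold enrichment of at least 5 was asked for, 26 members stayed bound, against 11.1% of all protein-coding genes.

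Of the writers, 20 of 36 were bound (55.6%, 38.1 to 72.1%), and of the erasers 13 of 36 (36.1%, 20.8 to 53.8%), a difference of 19.4 percentage points whose intervals overlapped. The Kansl genes, named for subunits of the NSL complex around the acetyltransferase Kat8, were bound in 3 of 4 cases. By family, 7 of 8 Kmt, 5 of 10 Setd, 1 of 2 Ehmt, 4 of 8 Kat and 3 of 8 Prmt genes had a summit, as did 8 of 18 Kdm, 4 of 11 Hdac and 1 of 7 Sirt genes. The lysine methyltransferases as a group (Kmt, Setd and Ehmt) thus reached 65.0% (40.8 to 84.6%), or 57.1% (37.2 to 75.5%) with the Prmt genes added. The deacetylases (Hdac and Sirt) stood at 27.8% (9.69 to 53.5%), an interval that overlapped both. The share of all protein-coding genes was 18.8%, and these groups were not split by base composition. With the window cut to 1000 bp upstream and 100 bp downstream, 47.2% of writers and 22.2% of erasers were bound, against 14.6% of all protein-coding genes.

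The 2 roles differed in where their genes lie and in the base composition of their starts, and these values moved with the difference. Hdac6, Hdac8, Kdm5c and Kdm6a lie on chromosome X and Kdm5d on chromosome Y. All 5 sex-linked members were erasers and 0 of them was bound, which allows a share of up to 52.2%. On chromosome X, 2.32% of protein-coding genes were bound, and the library held 34 peaks there. On the autosomes 13 of 31 erasers (41.9%, 24.5 to 60.9%) and 20 of 36 writers were bound, against 19.7% of autosomal protein-coding genes, and the difference was 13.6 points.

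A start was called CpG-rich when the 1001 bp around it had at least 55% G or C and a ratio of observed to expected CpG of at least 0.6. Such a start was present in 32 of 36 writers (88.9%), 25 of 36 erasers (69.4%) and all 4 Kansl genes, against 43.6% of all protein-coding genes. Among genes with a CpG-rich start, 17 of 32 writers (53.1%, 34.7 to 70.9%) and 13 of 25 erasers (52.0%, 31.3 to 72.2%) were bound, a difference of 1.12 points, and the background was 38.4%. Restricted further to autosomes, 13 of 22 erasers were bound (59.1%, 36.4 to 79.3%) and the difference turned to -5.97 points. These splits were chosen after the data were seen.

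Members without a CpG-rich start numbered 15, and 3 of them were bound, all writers. These were Kat8, which acetylates H4K16, Prmt5, the main enzyme of symmetric arginine dimethylation, and Setdb1, an H3K9 methyltransferase. Prmt5 with 52.8% G or C and Setdb1 with 54.6% missed only that limit, whereas Kat8 missed both, with 54.8% and a CpG ratio of 0.586. The other writer of this kind, Kat2a, was not bound. All 11 erasers without a CpG-rich start (Hdac3, Hdac8, Hdac9, Hdac10, Hdac11, Kdm4d, Kdm5d, Kdm6b, Sirt4, Sirt5 and Sirt6) lacked a promoter peak, which allows a share of up to 28.5%, and the background among such genes was 3.6%. The part of base composition and of sex linkage in the difference between roles was not tested.

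**Figure D1:**
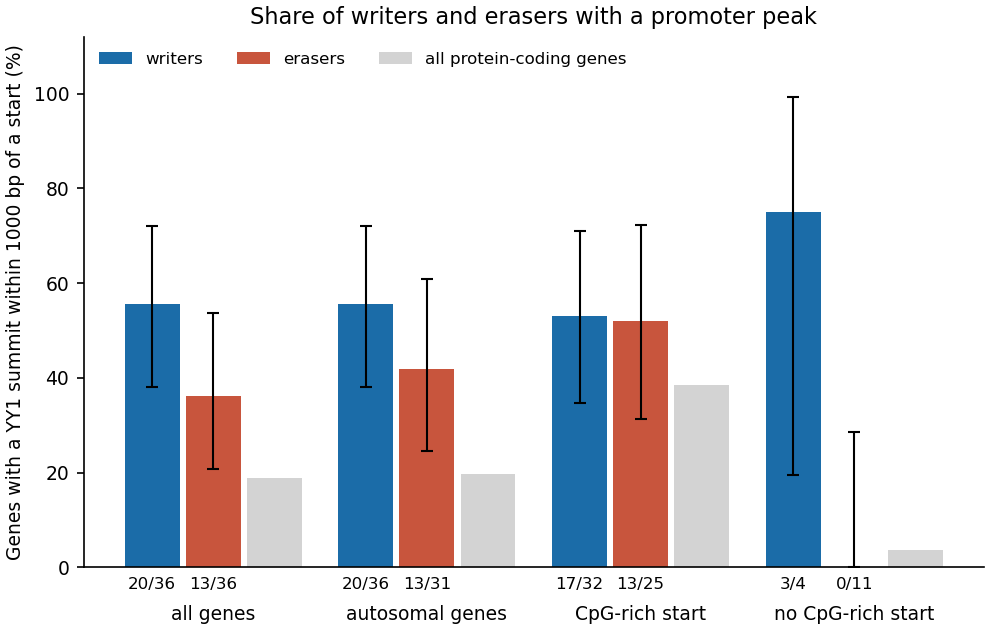
Percentage of writers (blue), erasers (red) and all protein-coding genes (grey) with a YY1 summit within 1000 bp of a start, for all genes, autosomal genes, and genes with or without a CpG-rich start; bars start at 0, lines are exact binomial 95% intervals, and the bound and total gene counts stand under each bar. The gap between writers and erasers is 19.4 points over all genes and 1.12 points among genes with a CpG-rich start.

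**Figure D2:**
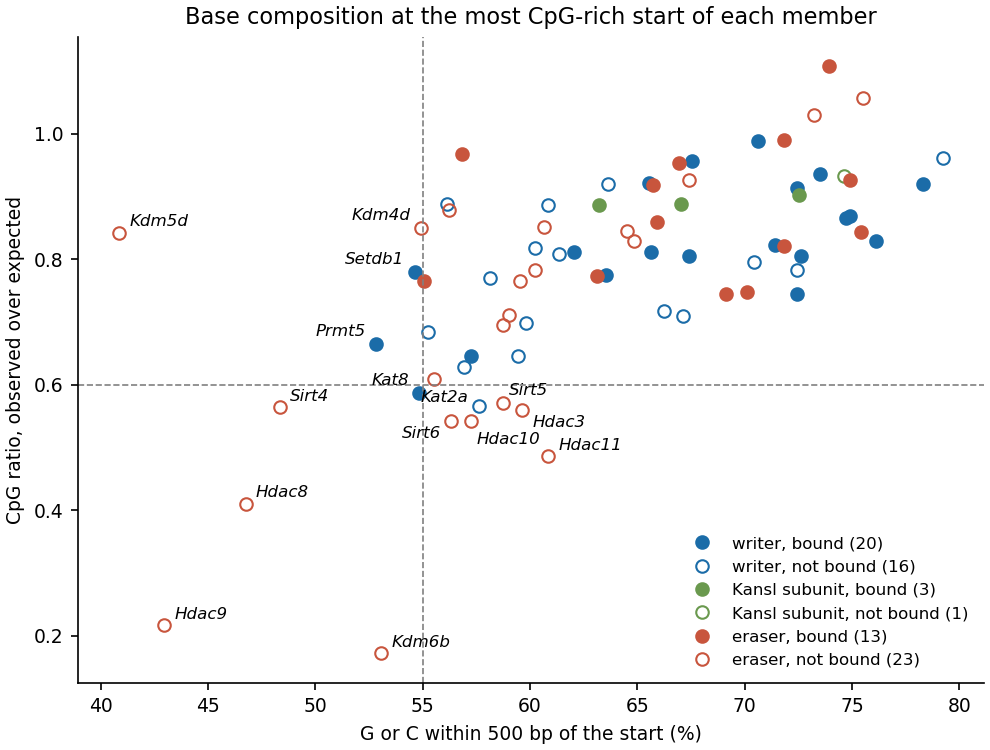
Percentage of G or C (horizontal axis) and ratio of observed to expected CpG (vertical axis) within 500 bp of the most CpG-rich start of each of the 76 members, coloured by role and filled where bound; dashed lines mark 55% and 0.6, and members under either limit are named. Of the 15 members outside the upper right field, the 3 filled points are Prmt5, Setdb1 and Kat8.

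Fold enrichment throughout is the number of fragments at the summit plus 1, divided by the local background plus 1. Among the writers, the H3K4 methyltransferases of the COMPASS type (Kmt2a, Kmt2b, Kmt2c, Kmt2d, Setd1a and Setd1b) were bound in 5 of 6 cases (35.9 to 99.6%). The share was 18.8% for all protein-coding genes and 38.4% for those with a CpG-rich start, which each of these enzymes had. Kmt2a, the MLL1 enzyme that maintains active promoters, had the highest fold enrichment of all members, 11.7, above 99.7% of all bound protein-coding genes. Its summit at 44881505 on chromosome 9 lay 209 bp upstream of the start and outside the annotated transcripts. It rested on 33 fragments (exact Poisson 95% interval 22.7 to 46.3) over a local background of 1.91, with a peak of 717 bp and deposited values of p 1.95e-30 and q 4.99e-25. Kmt2d, the main H3K4 monomethyltransferase of enhancers, followed with a fold enrichment of 7.78 and 20 fragments (12.2 to 30.9). Its summit (chromosome 15, 98872102) was 898 bp upstream, near the edge of the window, in a peak of 597 bp with p 2.65e-16 and q 1.65e-11. Setd1a and Kmt2b, each the core of another H3K4 complex, had fold enrichments of 6.81 and 6.70 at 286 and 240 bp upstream.

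Kmt2c, the paralogue of Kmt2d, had the lowest fold enrichment of all bound members, 3.43. Its 16 fragments (9.15 to 26.0) stood over a background of 3.95, more than 2 times that of Kmt2d. The summit lay at 25499653 on chromosome 5, 908 bp upstream, in a peak of 433 bp with p 9.62e-07 and q 0.00279. Kmt2c and Kmt2d were the members just inside the window. The members just outside it were Kdm6b, with a summit 3048 bp downstream of its start, and Ehmt2, with one 4222 bp upstream. Setd1b was the unbound enzyme of this type, and Setd7, which monomethylates H3K4 on its own, was not bound either.

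Setd5, a SET-domain protein whose catalytic activity is disputed, had one of the wider peaks. It spanned 1441 bp around a summit at 113077343 on chromosome 6, 22 bp upstream of the start, with a fold enrichment of 8.08, 22 fragments (13.8 to 33.3), p 8.96e-18 and q 7.24e-13. Setd3, which methylates actin rather than histones, had 7.41 at 382 bp upstream, whereas Setd4 and Setd6 were not bound. Setd2, the enzyme of H3K36 trimethylation, was the member with 2 summits in its window. The higher, at 110532316 on chromosome 9 and 281 bp upstream, had a fold enrichment of 5.04, 14 fragments (7.65 to 23.5), a width of 460 bp, p 3.29e-09 and q 2.59e-05. The lower, 559 bp downstream at 110533156, had 4.03, with 11 fragments, a width of 399 bp and q 0.0034.

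The enzymes of H4K20 methylation were bound in 2 of 3 cases (9.43 to 99.2%), against 18.8% of all protein-coding genes. Kmt5b, which adds the later methyl groups, had a fold enrichment of 6.06 at 22 bp upstream in a peak of 1063 bp. Kmt5a, which adds the first, had 5.23 at 231 bp downstream of an internal start. Kmt5c was not bound. Of the H3K9 methyltransferases, Setdb1 had 4.48 at 66 bp upstream and Ehmt1 3.53 at 5 bp downstream, whereas Ehmt2 and Setdb2 were not bound. Kmt2e, a SET-domain protein that binds H3K4 methylation more than it makes it, had 5.40 at 57 bp upstream.

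Of the arginine methyltransferases, Prmt5 had the second highest fold enrichment among writers, 9.26. Its summit at 54517611 on chromosome 14 lay 86 bp upstream of the only annotated start and gathered 24 fragments (15.4 to 35.7) in a peak of 343 bp (p 7.17e-21, q 9.48e-16). Prmt7, which makes monomethylarginine, had 7.73 with 22 fragments (13.8 to 33.3), p 3.7e-17 and q 2.75e-12. That summit (chromosome 8, 106210903; width 429 bp) was 33 bp upstream of Prmt7 and 30 bp from the start of Slc7a6os on the other side. Prmt1, which makes most asymmetric dimethylarginine, had 5.04 at 12 bp upstream. Prmt2, Prmt3, Prmt6, Prmt8 and Prmt9 were not bound.

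The acetyltransferases with a summit had moderate fold enrichments. Kat6b, of the MOZ/MORF complex, had 5.52 at 242 bp downstream of an internal start. Kat14, of the ATAC complex, had 5.44 at 23 bp downstream. Kat8 had 4.37 at 38 bp downstream and Kat5, the TIP60 enzyme of the DNA damage response, 4.29 at 110 bp downstream. Kat6a and Kat7 of the same enzyme family as Kat6b were not bound, nor were Kat2a and Kat2b of the SAGA and ATAC complexes.

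The Kansl genes spanned much of the range. Kansl3 had a fold enrichment of 9.86, the third highest of the members, from 24 fragments (15.4 to 35.7) at 36369134 on chromosome 1, 23 bp downstream in the first exon, in a peak of 458 bp (p 6.71e-22, q 9.8e-17). Kansl1l had 4.80 at 66817587 on the same chromosome, 25 bp upstream, with 14 fragments (7.65 to 23.5) and a width of 526 bp (p 8.49e-09, q 5.93e-05). Kansl2 had 3.78 at 98534187 on chromosome 15, 57 bp downstream, also with 14 fragments but over a background of 2.96, in 496 bp (p 5.77e-07, q 0.00202). Kansl1 was not bound.

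Among the erasers, demethylases of H3K9 held the highest summits, although only 3 of the 7 Kdm3, Kdm4 and Kdm7 genes taken by symbol were bound (9.90 to 81.6%). Demethylases under other symbols, among them Jmjd1c, Phf2 and Phf8, were not bound. Kdm3a, a hypoxia-inducible H3K9 demethylase, had a fold enrichment of 11.1, above 99.7% of bound protein-coding genes. Its 32 fragments (21.9 to 45.2) gathered at 71633510 on chromosome 6, 520 bp upstream, in a peak of 599 bp (p 9.71e-29, q 2.31e-23). Kdm7a, which removes H3K9 and H3K27 methylation, had 7.89 from 19 fragments (11.4 to 29.7), at 39206917 on the same chromosome and 128 bp upstream. That peak was 396 bp wide, with p 5.09e-16 and q 2.89e-11. Kdm3b, the paralogue of Kdm3a, had 7.10 from 17 fragments (9.90 to 27.2), at 34777380 on chromosome 18, 314 bp downstream in its first intron, in a peak of 412 bp (p 8.26e-14, q 2.78e-09). Kdm4a, Kdm4b, Kdm4c and Kdm4d were not bound.

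Of the H3K4 demethylases of the Kdm1 and Kdm5 groups 3 of 6 were bound (11.8 to 88.2%), against 18.8% of all protein-coding genes. Kdm5a had a fold enrichment of 6.05, with 17 fragments (9.90 to 27.2) at 120364280 on chromosome 6, 156 bp downstream in the first exon, and a wide peak of 811 bp (p 5.08e-12, q 1.01e-07). The flavin-dependent enzymes Kdm1a (LSD1) and Kdm1b (LSD2) had 5.92 at 76 bp downstream and 4.79 at 59 bp upstream. Kdm5b, Kdm5c and Kdm5d were not bound. Kdm2b, an H3K36 demethylase that recruits a Polycomb complex to CpG islands, had 5.52 at 311 bp downstream of an internal start. Its paralogue Kdm2a was not bound. Kdm8, a Jumonji-domain hydroxylase, had 5.30 at 37 bp downstream. Kdm6a and Kdm6b, whose main substrate is methylated H3K27, had no promoter peak.

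Of the 5 deacetylases with a summit, 3 were of class IIa, the class that binds MEF2 in muscle. Hdac4 had a fold enrichment of 6.39 from 18 fragments (10.7 to 28.4) at 92180707 on chromosome 1, 366 bp upstream of an internal start, in a peak of 710 bp (p 5.25e-13, q 1.41e-08). Hdac5 had 5.92 at 4 bp upstream and Hdac7 4.34 at 470 bp downstream of an internal start. The fourth of the class, Hdac9, was not bound. Hdac2 had 5.38 at 126 bp upstream, while Hdac1, with which it shares repressor complexes, and Hdac3, the enzyme of the NCoR complex, were not bound. Hdac6, Hdac8, Hdac10 and Hdac11 also lacked a promoter peak. Of the sirtuins, NAD-dependent deacylases, Sirt7 of the nucleolus had 4.37 at 208 bp downstream, and Sirt1 to Sirt6 were not bound.

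**Figure D3:**
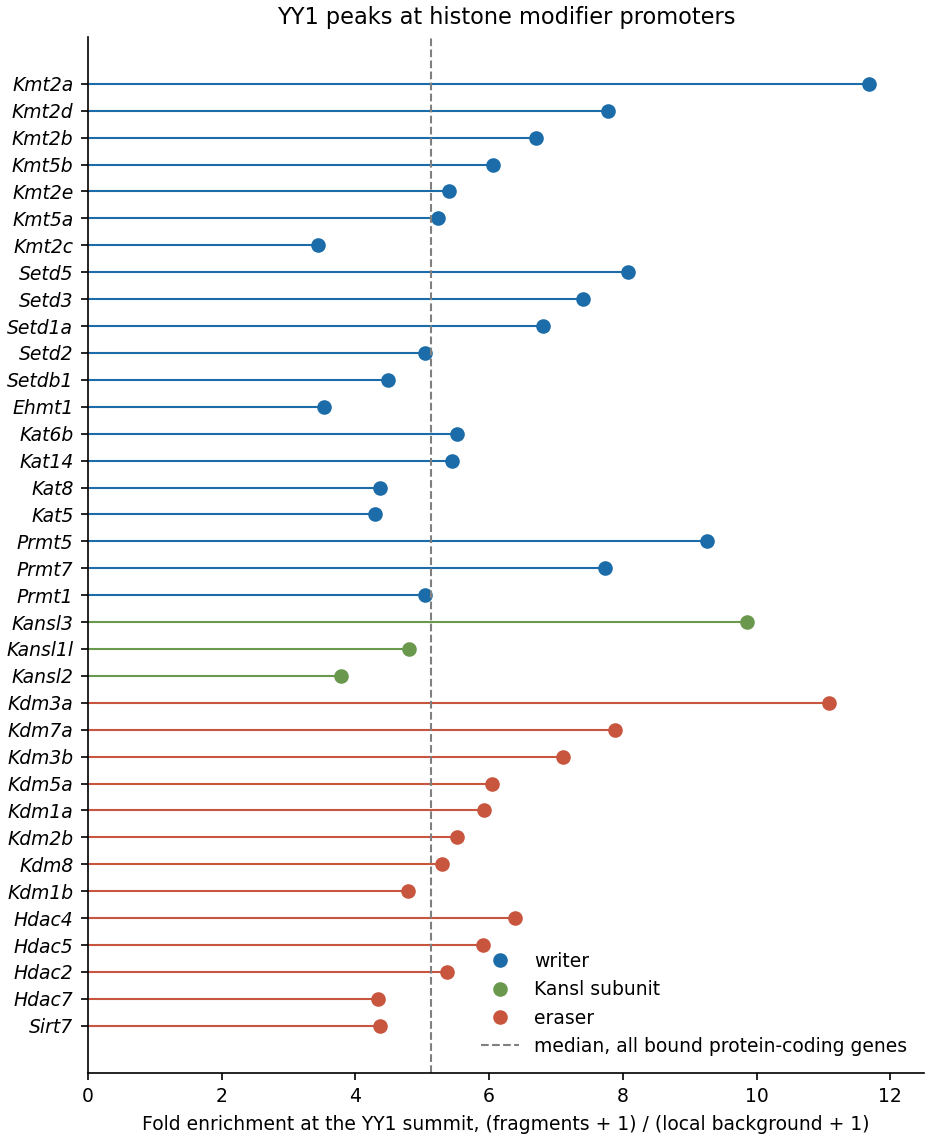
Fold enrichment at the summit, as fragments plus 1 over local background plus 1 (horizontal axis, from 0) for each of the 36 bound members, grouped by family and coloured by role, from 1 library; the dashed line is the median of all bound protein-coding genes, 5.13. Kmt2a at 11.7 and Kdm3a at 11.1 lie farthest to the right, and Kmt2c at 3.43 is the lowest.

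As a group, the bound members had a median fold enrichment of 5.52 (order-statistic 95% interval 5.04 to 6.70), beside 5.13 for all bound protein-coding genes. Writers and erasers did not separate on this measure, with medians of 5.48 (5.04 to 7.41) and 5.92 (4.79 to 7.10) and ranges that overlapped from 4.34 to 11.1. The median number of fragments at the summit was 16.5, beside 15 for all bound genes. The peaks were wider at the median, 477.5 bp (412 to 597 bp) beside 368 bp, and 6 of 36 (16.7%) were at least 800 bp wide, beside 5.15% of all bound genes. These were the peaks of Setd5, Kmt5b, Setd1a, Kdm1a, Kdm2b and Kdm5a, 3 writers and 3 erasers.

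Summits lay a median of 118 bp from the nearest start of the member, beside 107 bp for all bound genes, and 17 of 36 (47.2%) were within 100 bp, beside 47.9%. They were upstream of the start in 21 of 36 members (58.3%), beside 50.9% of all bound genes. Among writers this was 14 of 20 (70.0%) and among erasers 6 of 13 (46.2%). By annotation, 18 summits fell outside the transcripts of the member, 9 in a noncoding part of an exon, 5 in an intron and 4 in a coding exon. The summits in coding exons were those of Kat5, Kat8, Kmt5a and Sirt7.

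**Figure D4:**
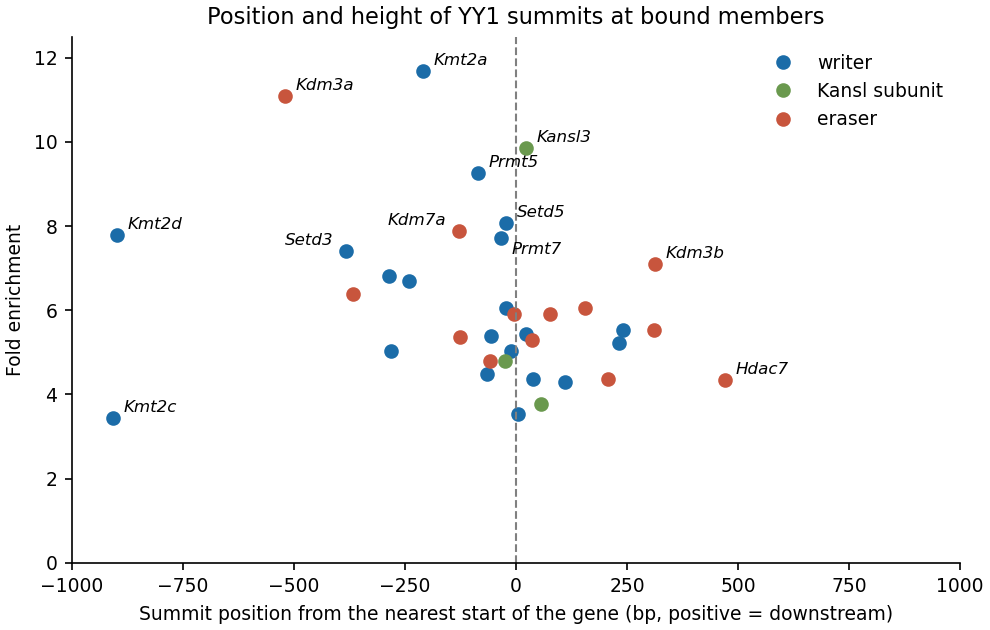
Distance of the summit from the nearest start of the gene in bp (horizontal axis, positive downstream) and fold enrichment (vertical axis) for the 36 bound members, coloured by role; members with a fold enrichment of at least 7 or farther than 400 bp from the start are named. Kmt2c and Kmt2d stand alone near the left edge at 908 and 898 bp upstream, and 33 members lie within 500 bp of the start.

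In 4 bound members the start of another protein-coding gene lay within 1000 bp of the summit, so that the peak cannot be assigned to 1 gene. The summit was nearer to Slc7a6os than to Prmt7 (30 against 33 bp) and nearer to Ccnk than to Setd3 (42 against 382 bp). At Kat14 it was 26 bp from Pet117, and at Kdm1b it was 230 bp from Tpmt, both farther than from the member itself. Counting only peaks with no nearer start of another gene left 34 members bound, against 16.4% of all protein-coding genes. These held 18 of 36 writers and 13 of 36 erasers, a difference of 13.9 points.

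The 40 unbound members were mostly far from any peak. Their nearest summit was a median of 98.2 kb away (range 3.05 to 7020 kb), and in 36 of 40 it was over 10 kb away. The 4 exceptions were Kdm6b, Ehmt2, Sirt4 and Setd1b. The summit next to Ehmt2, with a fold enrichment of 6.70, lay 312 bp from the start of Zbtb12. The summit next to Sirt4, 5391 bp upstream, had 3.69, and that next to Setd1b, 5589 bp upstream, had 5.23. Weaker sites at the other members could have been missed, since a call depended on the depth, the local background and the authors' p-value limit. The smallest number of fragments at any called summit was 8.

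The full motif was found at the members' summits about as often as at other promoter summits. It stood within 100 bp of 3 of 36 summits (8.33%, 1.75 to 22.5%), beside 285 of 3777 peaks at protein-coding promoters (7.55%). The core ATGGC was found at 11 of 36 (30.6%) beside 30.6%. Counted instead within 100 bp of a transcript start, the motif was present in 9 of 36 bound members (25.0%, 12.1 to 42.2%) and in 9 of 40 unbound members (22.5%, 10.8 to 38.5%), beside 7.68% of all protein-coding genes and 536 of the 4119 bound ones. Among bound writers it was 7 of 20 (Kat5, Kat6b, Kmt2a, Kmt2b, Kmt2e, Prmt1 and Prmt7), and among bound erasers 1 of 13 (Hdac4).

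The unbound members with the motif at a start were Hdac1, Kdm2a, Kdm5c, Sirt1, Sirt2, Kansl1, Ehmt2, Kat6a and Kat7. All had a CpG-rich start. Among genes with such a start, the motif was present in 27.3% of bound members (9 of 33) and 32.1% of unbound members (9 of 28), beside 13.5% of all bound and 8.90% of all unbound protein-coding genes. A match is a description of the letters only.

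Enzymes and complex subunits of the same pathways that the symbols did not take were bound in 41 of 70 cases (58.6%, 46.2 to 70.2%), against 18.8% of all protein-coding genes. When a fold enrichment of at least 5 was asked for, 22 of them counted as bound, against 11.1%. The base composition of the starts of these related genes was not compared. Among all protein-coding genes with a CpG-rich start, 38.4% were bound when every peak was counted. Subunits of acetyltransferase complexes were bound in 14 of 18 cases, led by Brpf1 (7.19) and Tada3 (6.06). Subunits of the COMPASS complexes, which serve the Kmt2 and Setd1 enzymes, were bound in 5 of 8, led by Rbbp5 (11.8) and Wdr5 (6.31). Subunits of deacetylase complexes were bound in 12 of 20, led by Ing2 (7.89) and Tbl1xr1 (7.49). The Hdac and Sirt genes themselves were bound in 5 of 18 cases (27.8%), and the interval for their partners, 36.1 to 80.9%, overlapped theirs.

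Other lysine methyltransferases were bound in 6 of 12 cases, led by Ash1l (8.68), an H3K36 enzyme, and Dot1l (7.04), the H3K79 enzyme. Of the other acetyltransferases 3 of 5 were bound, led by Crebbp (6.31) and Ncoa1 (4.93), and Carm1, an arginine methyltransferase, had 3.84. Of the other demethylases 0 of 6 were bound (Jmjd1c, Phf2, Phf8, Uty, Riox1 and Riox2), which allows a share of up to 45.9%. Phf8 and Uty are sex-linked.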

How the data were processed

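The data were the YY1 peaks of 1 ChIP-seq library. As the methods describe, reads were trimmed, filtered and mapped to mm10 with bowtie2 by the authors, who removed redundant reads and called peaks with MACS2; tool versions were not given in the sources used here. The deposited fold enrichment is the ratio of summit fragments to local background after the authors' peak caller adds 1 to both, and the deposited −log10 p-values and −log10 q-values come from the same program's Poisson model within this pair of libraries. The integer score column was not used. The background library was not analysed on its own.

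Fragments at each summit and the local background were solved from the deposited fold and p-value; whole numbers (within 0.001) came out for all 4681 peaks. The median was 14 fragments (range 8 to 394), and the depth estimated from the most frequent background, 1.54, with the narrowest peak, 215 bp, as the fragment length and the mouse genome size preset in MACS2, was 13357713 fragments. A deeper library would let weaker sites pass. Summits (1-based) were joined to the starts of GENCODE M21 basic transcripts, leaving out mitochondrial genes, and the peak with the highest fold enrichment in the window was taken for each gene. All peaks ended within the GRCm38 chromosomes. Motifs AANATGGC and ATGGC (held within AANATGGC) were searched on both strands. Intervals are exact binomial (Clopper-Pearson) for shares, exact Poisson for fragments and order-statistic for medians, all at 95%. Python 3.11.15, pandas 2.3.3, scipy 1.17.1 and pysam 0.24.0 were used, and the scripts were tested on simulated data.

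The members and lists were chosen with earlier results of these data known. All bound members are named, with full values for the 5 writers and 5 erasers of highest fold enrichment, the bound Kansl genes, members with 2 summits and those next to the window's edge, and the 2 highest related genes per group. Other peak limits, windows, start sets, role definitions and motif windows were tried, and splits by chromosome and CpG content were added after the data were seen.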

Additional observations from a re-analysis of the deposited data

How the results depend on the processing

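No paired analysis was possible because only 1 ChIP library was made and no result comes from a test; for the same reason no replicate could be left out. Across the other peak limits, windows and start sets, between 26 and 36 members were bound and writers exceeded erasers by 13.9 to 25.0 percentage points. With 1 start per gene 31 members were bound, against 17.4% of all protein-coding genes. Counting the Kansl genes as writers gave a difference of 21.4 points, and leaving out Setd3, Setd6, Sirt3, Sirt4 and Sirt5, whose main substrates are not histones, gave 16.5. The difference did not keep its direction among autosomal genes with a CpG-rich start, at -5.97 points, nor, within CpG-rich genes, when only the 5′ end of the gene was judged, at -2.68 points (28 writers and 16 erasers); it was 5.88 points with a limit of 50% G or C and 9.0 with a CpG ratio of at least 0.75. The related genes bound fell to 22 once summits under a fold of 5 were dropped, and the share of member peaks with the motif was 2.78% within 50 bp of the summit and 5.56% with the widest promoter window, and rose to 27.8% when the whole peak was searched and to 30.6% for the core ATGGC; the last 2 alternatives search more sequence or fewer letters. The medians of fold enrichment (5.52 to 6.22) and distance (62.5 to 142 bp) moved by less than the spread between members. All called summits had at least 8 fragments, a limit that depends on the depth, the local background and the authors' p-value limit together.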

Other observations

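YY1 peaks inside the bodies of members, away from their own promoter windows, were found in 3 genes, none of them bound at the promoter. Setd1b, an H3K4 methyltransferase, had a summit in intron 5, 7615 bp from the 5′ end of the gene, with a fold enrichment of 4.73 and 11 fragments. Kdm6b, an H3K27 demethylase, had one in intron 1 (3.60, 11 fragments). Kat2b, an acetyltransferase of the SAGA and ATAC complexes known in muscle as the MyoD partner PCAF, had one in intron 1, 20.4 kb from the 5′ end (4.16, 12 fragments). All other unbound members had no summit within their bodies.

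Searched over the whole peak instead of the 100 bp around the summit, the motif AANATGGC was found in the peaks of 10 of 36 bound members (27.8%, 14.2 to 45.2%), beside 562 of 3777 peaks at protein-coding promoters (14.9%, 13.8 to 16.1%). Kdm3a and Kmt2a, whose summits lie away from the motif, were among the 10, with Prmt7, Setd3, Kat6b, Kmt5b, Kat5, Kmt2e, Prmt1 and Kansl2; Kdm3a was the only eraser. The members' peaks were wider at the median than those of all bound genes (477.5 beside 368 bp), and the part of width in this share was not tested.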
